A study of Mus musculus with 4 samples.

Results

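Replication-dependent histone genes were examined in fetal oocytes of mice whose mothers ate normal chow (ND, normal diet) or high-fat feed (HFD). The members are the protein-coding genes whose GENCODE M21 symbol begins with Hist1h, Hist2h, Hist3h or Hist4h, and 67 of the 55401 gene identifiers in the count files met this rule. By class they comprised 6 linker histone H1 genes, 18 H2A genes, 18 H2B genes, 12 H3 genes and 13 H4 genes. By cluster they comprised 54 Hist1 genes on chromosome 13, 10 Hist2 genes on chromosome 3, 2 Hist3 genes on chromosome 11 and 1 Hist4 gene on chromosome 6. Another 3 genes with such symbols are annotated as pseudogenes and were left out.

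RNA came from SSEA-1-positive cells, the surface antigen by which germ cells were sorted out of ovaries of fetuses at E18.5. The mothers were ICR females kept on ND or HFD for 4 months and mated with ND males, and the labels name the cells primordial germ cells. There were 2 libraries per diet, each from oocytes pooled over several fetuses and amplified with SMART-Seq2, a full-length cDNA method for small inputs that starts from poly(A) tails. The labels name no culture, litter or day that a replicate number marks, so p-values measure only the spread between these pools. Genotype and strain were the same in both groups, and the diet was the only stated difference.

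Replication-dependent histones package newly copied DNA, and their genes are transcribed mainly in S phase. Their mRNAs are the only animal mRNAs that normally end in a conserved stem-loop instead of a poly(A) tail. The stem-loop binding protein, U7 snRNA and a cleavage factor that includes Cpsf2, Cpsf3 and Sympk make this end. Oocytes store histones and their mRNAs for the embryo, whereas oocytes of the late fetal ovary are in meiotic prophase, after their last S phase. Replacement histones such as H3.3 and H2A.Z are made throughout the cell cycle from separate, polyadenylated mRNAs.

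The 3′ stem-loop is shown because it sets these mRNAs apart from nearly all others. Its letters were found in the GENCODE M21 transcripts of 46 of the 67 histone genes and in 53 of 21834 other protein-coding genes, or 0.243%. The search used a fixed histone pattern of a 6-base stem around a 4-base loop, with a choice of letters at some positions. It was read on the transcript strand only. Other stems of this shape were not searched, and pairing of the stem letters was not required. The 3 commonest forms are given 5′ to 3′, with the stem in capitals and the loop in lower case.
Stem-loop of 26 genes of the H1, H2A, H2B and H3 classes: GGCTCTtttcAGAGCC
Stem-loop of 7 genes, all H4: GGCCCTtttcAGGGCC
Stem-loop of 6 genes of the H1, H2B and H3 classes: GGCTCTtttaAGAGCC
The stem letters set only H4 apart, since each of the 12 H4 genes with a stem-loop had one of 4 forms that no gene of another class carried. The H1, H2A, H2B and H3 classes shared the same stem letters. Hist1h2ag, Hist1h2ao, Hist1h2ap, Hist1h1d and Hist1h2be carried the first form, Hist4h4 the second.

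Annotated transcript ends differed between the genes. The model stopped within 100 bases of the stem-loop in 23 genes and ran further past it in 23 genes. In the remaining 21 genes no stem-loop was found, and 13 of these models are at most 20 bases longer than the coding sequence, 11 of them equal to it in length, so the stem-loop would lie outside them. Where a model ran past the stem-loop, 12 of 23 had a poly(A) signal (AATAAA or ATTAAA) in the last 60 bases. Median transcript lengths were 482 bases for models that stopped at the stem-loop and 1249 bases for those that ran past it.

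Reads on members were few in every library. SMART-Seq2 starts from poly(A) tails, which these mRNAs normally lack. Their counts therefore do not measure how much histone mRNA the cells held. They took 462 counts in ND replicate 1, 5036 in ND replicate 2, 315 in HFD replicate 1 and 281 in HFD replicate 2. In CPM, the count divided by the library total and multiplied by 1000000, these were 56.2, 644, 48.8 and 49.1. ND replicate 2 stood far above the other libraries, which lay close together. Library totals ran from 5723605 to 8223255 counts, so that 3 counts, the most that a count of 0 allows, correspond to 0.365 to 0.524 CPM. These floors cover counting error only, because the reads carry no molecular identifiers.

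The class H2A, the core histone that pairs with H2B, held most of these reads in 3 of 4 libraries. Its share of the histone counts was 68.0% and 97.2% in ND and 60.6% and 9.61% in HFD. All other classes together had 148 and 140 counts in ND and 124 and 254 in HFD. Of the 67 genes, 64 stayed under 10 CPM in every library and 9 had 0 counts throughout. The 3 genes that reached 10 CPM were Hist1h2ag, Hist1h2ap and Hist1h2ao, all of class H2A.

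**Figure D1:**
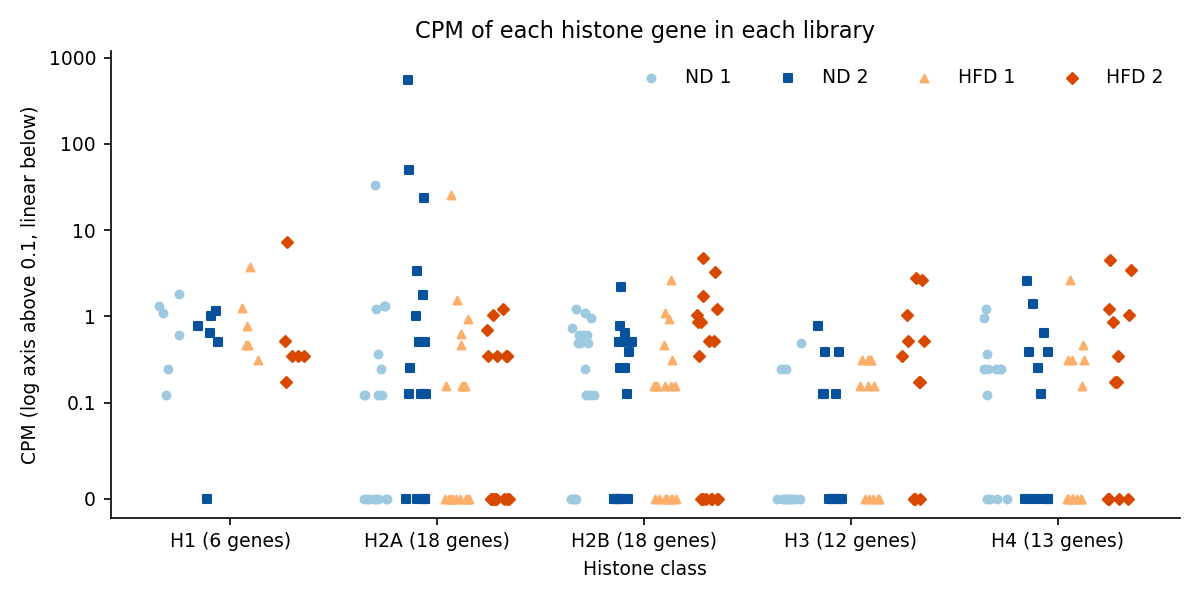
CPM (vertical axis, logarithmic above 0.1 and linear below) of each of the 67 histone genes by class, with a point for each gene in each of the 4 libraries. H2A points of ND replicate 2 reach 545 CPM, and outside H2A no point exceeds 7.34 CPM.

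Hist1h2ag held the most counts of any histone gene in 3 of 4 libraries, all but HFD replicate 2, where Hist1h1d had 42 counts. It encodes a core H2A on the minus strand of chromosome 13, at chr13:22042460-22042944 of GRCm38, in a single exon. It had 273 counts in ND replicate 1, 4258 in ND replicate 2, 164 in HFD replicate 1 and 2 in HFD replicate 2. On library totals both HFD values lay below both ND values. With library sizes scaled by edgeR's TMM factors, HFD replicate 1 lay above ND replicate 1, so the diets overlapped. In CPM the mean was 289 ± 362 (SD, n = 2) in ND and 12.9 ± 17.7 in HFD. The gap between the libraries of the same diet was thus larger than the gap between ND replicate 1 and HFD replicate 1, at 33.2 and 25.4 CPM. The fitted log2 fold change of HFD over ND was -4.06 (SE 2.79), with an adjusted p of 0.579 from edgeR's quasi-likelihood test. Without ND replicate 2 it was -0.80, and without HFD replicate 1 it was -10.37.

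Hist1h2ag was alone among the 46 genes with a stem-loop in having poly(A) signal letters at its stop codon, before the stem-loop. This is 2.17% of them, and 6.55% of 21699 protein-coding genes with a stop codon have AATAAA or ATTAAA over or within 37 bases past it. The 30 bases around the stop codon are shown for the 3 leading H2A genes because they differ in these letters. Each stretch starts 12 bases before the stop codon, and AATAAA is in capitals.
Hist1h2ag: gccaaggggaAATAAAaccctttatacaaa
Hist1h2ao: gccaagggaaaataagaccagccgttcact
Hist1h2ap: gccaagggaaaataagaccagccgttcact
In Hist1h2ag the stem-loop begins 37 bases past the stop codon, and in Hist1h2ao and Hist1h2ap it begins 39 bases past it. Whether the letters in Hist1h2ag are used as a signal cannot be read from gene counts and was not tested.

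Hist1h2ap and Hist1h2ao, other genes for core H2A, followed ND replicate 2. Hist1h2ap had 394 counts in ND replicate 2 and 0 in each of the others, so a single library held all of its reads. Hist1h2ao had 11 and 182 counts in ND and 10 and 0 in HFD, and the diets overlapped. Its fitted log2 fold change was -3.56 (SE 2.61), with an adjusted p of 0.601 from edgeR, and it was -0.24 without ND replicate 2 and -9.77 without HFD replicate 1. Hist1h2ap did not pass the filter on low counts. Next came Hist1h2ae, with 26 counts in ND replicate 2, 2 in HFD replicate 2 and 0 in the others, and Hist1h2af, with 14 in ND replicate 2 and 0 elsewhere, both named after their values were seen.

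The 3 leading H2A genes share most of their coding sequence. Over the 393 coding bases Hist1h2ao and Hist1h2ap each differed from Hist1h2ag at 3 positions, with an unbroken identical run of 362 bases. Hist1h2ad, which differed at 2 positions, had 1 count, in HFD replicate 1. Of all 150-base stretches of the transcript, 65.5% in Hist1h2ag, 91.5% in Hist1h2ao and 91.0% in Hist1h2ap also occur in another gene's transcript. Reads from such stretches cannot be assigned to a single gene, so the split between these genes is uncertain. For Hist1h2ae and Hist1h2af the shares were 24.5% and 58.4%.

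The split between these genes can be given as shares for each library. Of the reads on Hist1h2ag and Hist1h2ao together, Hist1h2ao took 3.87% in ND replicate 1 (95% exact Clopper-Pearson interval 1.95% to 6.82%), 4.10% in ND replicate 2 (3.54% to 4.72%) and 5.75% in HFD replicate 1 (2.79% to 10.3%). These intervals overlap. Of the reads on Hist1h2ag and Hist1h2ap together, Hist1h2ap took 8.47% in ND replicate 2 (7.68% to 9.31%). It took 0 of 273 in ND replicate 1 (the same interval, 0% to 1.34%) and 0 of 164 in HFD replicate 1 (0% to 2.22%). These limits cover counting error only, not the spread between pools, and Hist1h2ap was named for its reads in ND replicate 2, so the shares are a description. HFD replicate 2, with 2 reads on Hist1h2ag, gives no usable share.

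**Figure D2:**
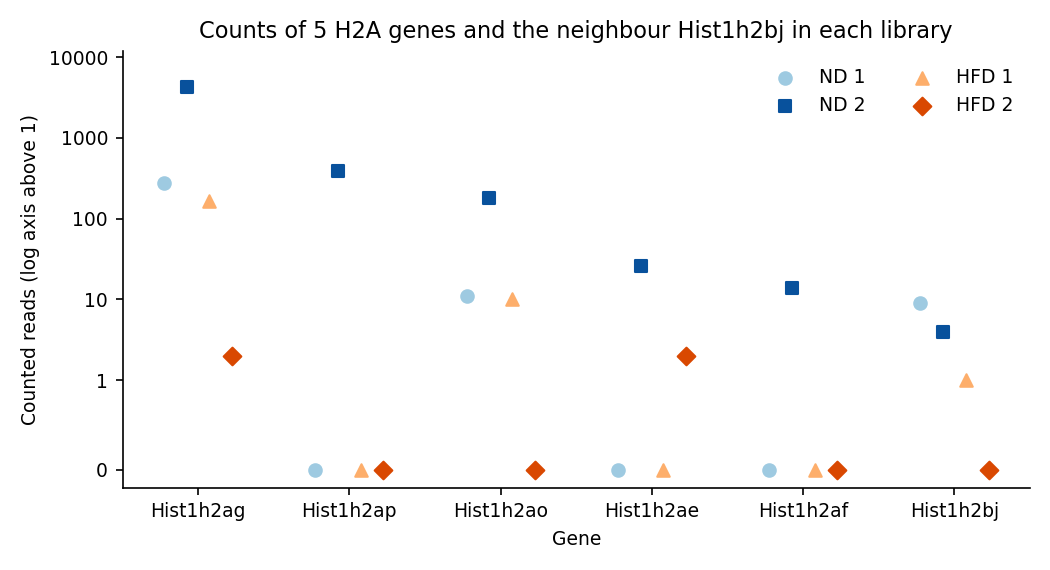
Counted reads (vertical axis, logarithmic above 1 and linear below) of Hist1h2ag, Hist1h2ap, Hist1h2ao, Hist1h2ae, Hist1h2af and Hist1h2bj, with a point for each of the 4 libraries. ND replicate 2 is highest for each of the 5 H2A genes, at 4258 for Hist1h2ag, and ND replicate 1 is highest for Hist1h2bj, at 9.

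Hist1h2bj, an H2B gene transcribed away from Hist1h2ag on the opposite strand, is its neighbour. Its counts were 9 and 4 in ND and 1 and 0 in HFD, all below 20. The stretch between these genes is shown because it holds the start of Hist1h2ag and ends 15 bases short of Hist1h2bj. It is the RefSeq promoter of Hist1h2ag on GRCm38.p6, chr13:22042900-22043199 on the minus strand, given 5′ to 3′ with CCAAT letters of either strand in capitals.
Hist1h2ag promoter: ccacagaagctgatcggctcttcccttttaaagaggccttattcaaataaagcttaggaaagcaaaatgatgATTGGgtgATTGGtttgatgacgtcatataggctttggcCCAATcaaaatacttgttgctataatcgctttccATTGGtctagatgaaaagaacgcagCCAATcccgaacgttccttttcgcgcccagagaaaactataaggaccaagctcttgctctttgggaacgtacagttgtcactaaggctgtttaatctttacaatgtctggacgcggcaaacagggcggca
CCAAT occurs in it 5 times, on the plus strand of the gene at -139 and -80 and on the other strand at -178, -170 and -105, counted from the start site to the match. TATAAA does not occur in it. CCAAT on either strand was found in 52 of the 61 histone promoters that RefSeq held, or 85.2%, beside 37.4% of 32851 RefSeq promoters. TATAAA on either strand was found in 35 of the 61, or 57.4%, beside 13.6%. These matches describe letters only.

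Most other histone genes were at the level of background. Background was taken from 1135 protein-coding olfactory receptor genes, which are not known to act in oocytes and of which 80.2% to 96.0% had a read. Their median was 2.70 and 1.34 reads per kilobase of exon in ND and 1.44 and 2.33 in HFD. The median of the histone genes was 2.44 and 2.17 in ND and 1.60 and 1.61 in HFD. A gene was taken to exceed background in a library with more than 3 counts and a value over the 99th percentile of the olfactory receptor genes there, a limit of 7.44 to 12.5 reads per kilobase.

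Above this limit lay 6 and 7 histone genes in ND and 2 and 5 in HFD. In all, 14 genes passed it in at least 1 library and 0 passed it in all 4. Hist1h2ag had 563, 8779 and 338 reads per kilobase in ND replicate 1, ND replicate 2 and HFD replicate 1, but 4.12 in HFD replicate 2. Hist1h2ao passed in the same 3 libraries, at 22.9, 379 and 20.8. Hist2h4, which encodes H4, passed in ND replicate 2 at 12.3 and in HFD replicate 2 at 15.95. Hist1h2bm, an H2B gene, passed in ND replicate 1 at 9.54 and in HFD replicate 2 at 19.1. The other 10 passed in a single library, among them the H3 genes Hist1h3a at 28.1 and Hist2h3c2 at 15.7 in HFD replicate 2. No H1 gene passed in any library.

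**Figure D3:**
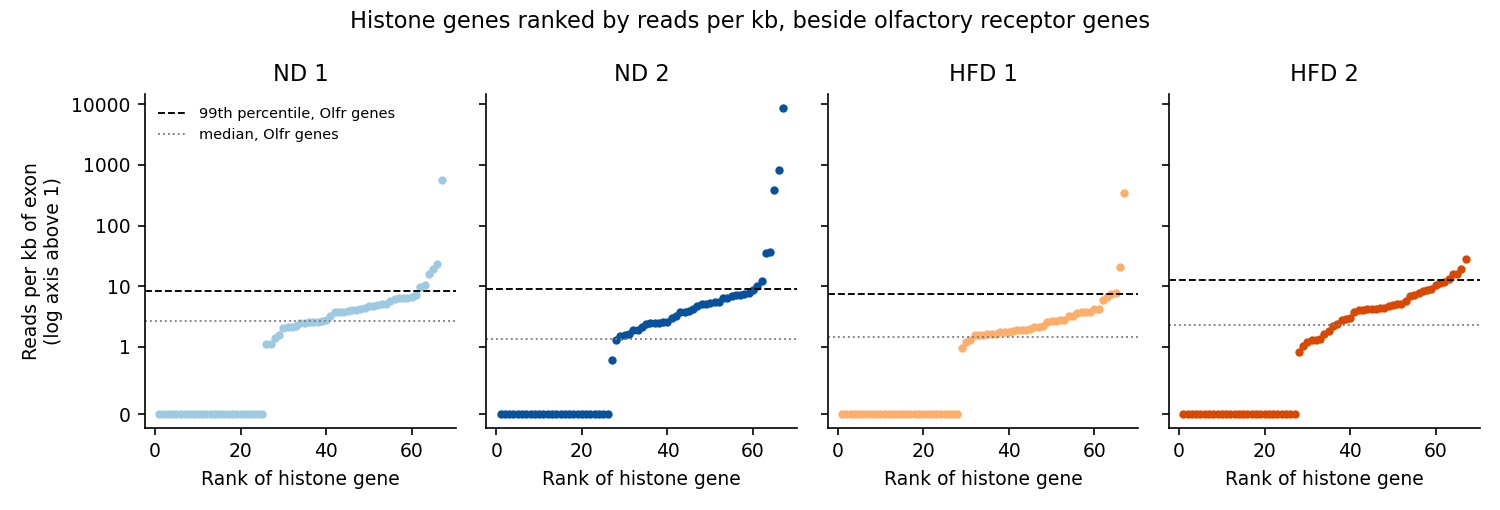
Reads per kilobase of exon (vertical axis, logarithmic above 1) of the 67 histone genes ranked within each library, with the median and the 99th percentile of the olfactory receptor (Olfr) genes as dotted and dashed lines. In each library most histone genes lie under the dashed line, which stands between 7.44 and 12.5, and 2 to 7 exceed it and 3 counts.

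All 9 genes at 0 in every library share transcript stretches with other annotated genes. Hist2h2aa1, Hist2h2aa2, Hist2h2bb, Hist2h3b and Hist2h3c1 are the 5 members whose 150-base stretches all occur in other genes too. Hist1h2bn, Hist1h2bq, Hist1h2br and Hist1h4n shared 34.9% to 92.4% of theirs. Hist2h2bb shared its stretches with only 2 genes, and its exon overlaps the annotated genes Gm42743 and Gm20628 at its own locus. The search counted such overlaps as shared, so the share of Hist2h2bb may reflect overlap and not a repeated sequence. Exons of Hist2h2aa1, Hist2h2aa2, Hist2h3b and Hist2h3c1 also overlap annotated genes, so overlap may add to their shares too. For all 9 genes a count of 0 does not show that no RNA was present. The handling of reads with several matches or over overlapping genes is not given in the sources used here. At the other end, 13 members shared none, among them Hist1h1d, Hist2h2be and Hist2h4. Whether the reads were counted by strand is not given either. Exons of 21 members overlap an antisense gene, including all 18 H2A genes, and the 17 such genes that are annotated as miRNAs had 0 counts in all libraries.

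The diets were compared for each gene with edgeR's quasi-likelihood test across the 19335 genes that passed the filter on low counts, at an adjusted p under 0.05 and a fold change over 1.5. Only 6 of the 67 histone genes passed that filter, and 0 of them were called, where 0.0% of all genes were called. At an unadjusted p under 0.05 there were 2 of the 6, beside 11.2% of all genes. Below 0 in log2 fold change were 3 of the 6, beside 48.5% of all genes. The 4 libraries can be split into pairs in only 3 ways, so an exact permutation test of a single gene cannot reach 0.05.

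Hist1h1d, a linker histone gene, had 15 and 6 counts in ND and 24 and 42 in HFD, so the diets did not overlap. Its log2 fold change was 1.96 (SE 0.54), with an unadjusted p of 0.00984 and an adjusted p of 0.406 from edgeR. Its annotated exon is 7425 bases long and runs 4884 bases past the stem-loop. Per kilobase it held 2.02 and 0.808 reads in ND and 3.23 and 5.66 in HFD, under the background limit in all 4 libraries.

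Hist4h4, an H4 gene on chromosome 6, had 8 and 11 counts in ND and 17 and 20 in HFD, again without overlap. Its log2 fold change was 1.31 (SE 0.51), with an unadjusted p of 0.0399 and an adjusted p of 0.406 from edgeR. Its model of 2863 bases runs 2445 bases past the stem-loop, and its 2.79 to 6.99 reads per kilobase were also under the limit. Neither Hist4h4 nor Hist1h1d passed the adjustment over all genes. Both were named for their unadjusted p, so their lack of overlap is no separate result.

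Hist1h2be, an H2B gene, had 5 and 17 counts in ND and 17 and 19 in HFD, with a log2 fold change of 1.04 (SE 0.81) and an adjusted p of 0.630 from edgeR. Its exons overlap those of Hist1h1e on the same strand. Hist2h4 had 10 and 20 counts in ND and 3 and 26 in HFD, with a log2 fold change of -0.07 (SE 0.93) and an adjusted p of 0.991 from edgeR. The replicates of Hist2h4 differed by more than the diets did. Of the 6 genes tested, 4 have models that run past the stem-loop, and Hist1h2ag and Hist1h2ao are the 2 whose models end at it. The members nearest below 10 CPM were Hist1h1d at 7.34, Hist2h2be at 4.72 and Hist2h4 at 4.54, all in HFD replicate 2.

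**Figure D4:**
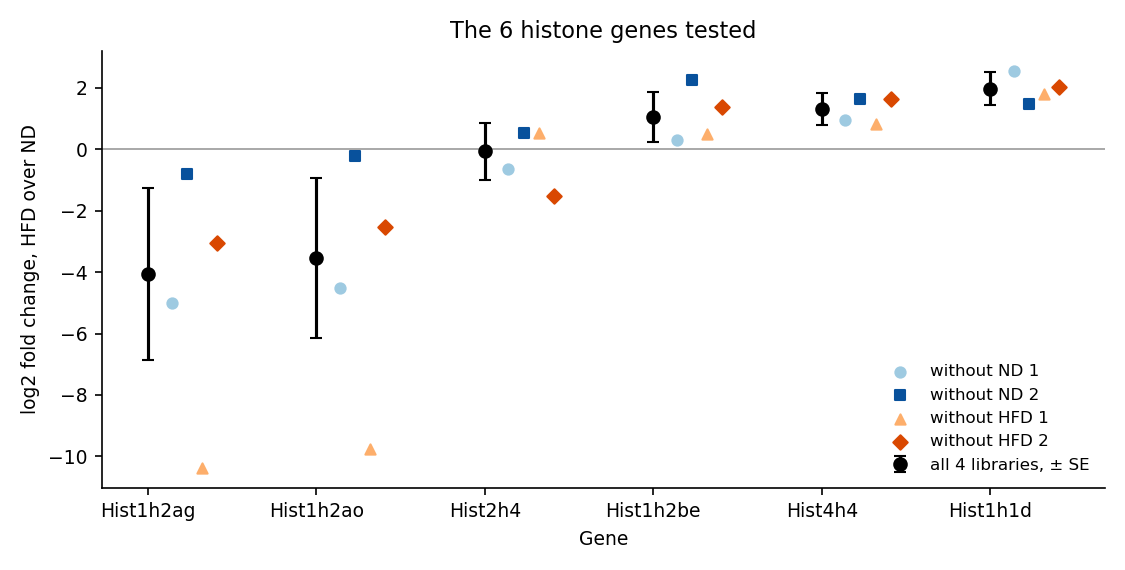
Log2 fold change of HFD over ND (vertical axis) of the 6 histone genes tested, as the fit on all 4 libraries ± SE (black) and with each library left out (coloured points). Hist1h2ag moves between -10.37 and -0.80, whereas Hist1h1d stays between 1.46 and 2.55.

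Over the 58 histone genes with at least 1 count, both HFD values in CPM lay below both ND values in 7 genes, or 12.1%. They lay above them in 11 genes, or 19.0%. The same held for 12.7% and 13.9% of all 49005 genes with a count. The share below is thus near that of all genes, and most of these genes have few reads. Those with both HFD values lower were Hist1h1c, Hist1h2ab, Hist1h2ag, Hist1h2an, Hist3h2a, Hist1h2bj and Hist1h4b. Of these, Hist1h2ag and Hist3h2a overlapped between the diets with library sizes scaled by the TMM factors. Hist1h1c, another linker histone gene, had 11 and 8 counts in ND and 3 and 2 in HFD, and Hist3h2a, which overlaps Trim17 on the same strand, had 11 and 8 against 6 and 2. Among those with both HFD values higher, Hist1h3a had 2 and 1 counts in ND and 2 and 15 in HFD, and Hist2h3c2 had 0 and 0 against 1 and 16.

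Summed over the H2A class, CPM was 38.2 and 626 in ND and 29.6 and 4.72 in HFD. The log2 ratio of the HFD mean to the ND mean was -4.28, with a mean of 332 ± 416 (SD, n = 2) in ND and 17.1 ± 17.6 in HFD. Without ND replicate 2 the ratio was -1.15. Leaving out Hist1h2ag gave 4.99 and 81.6 CPM in ND and 4.18 and 4.37 in HFD, so that 3 libraries were alike and ND replicate 2 stood apart.

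The H1 class summed to 5.23 and 4.09 CPM in ND and 6.97 and 9.09 in HFD, with both HFD libraries above both ND libraries and a log2 ratio of 0.78. Without Hist1h1d its sums were 3.405 and 3.33 in ND and 3.25 and 1.75 in HFD, and the log2 ratio was -0.43. The direction of the H1 sum therefore rested on that gene.

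H2B, H3 and H4 overlapped between the diets, and for each the highest sum was in HFD replicate 2. H2B summed to 7.90 and 6.14 CPM in ND and 6.35 and 15.2 in HFD. H3 summed to 0.973 and 1.92 in ND and 1.70 and 8.21 in HFD. H4 summed to 3.89 and 5.76 in ND and 4.18 and 11.9 in HFD. Without HFD replicate 2 their log2 ratios went from 0.62 to -0.15 for H2B, from 1.78 to 0.24 for H3 and from 0.74 to -0.21 for H4.

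**Figure D5:**
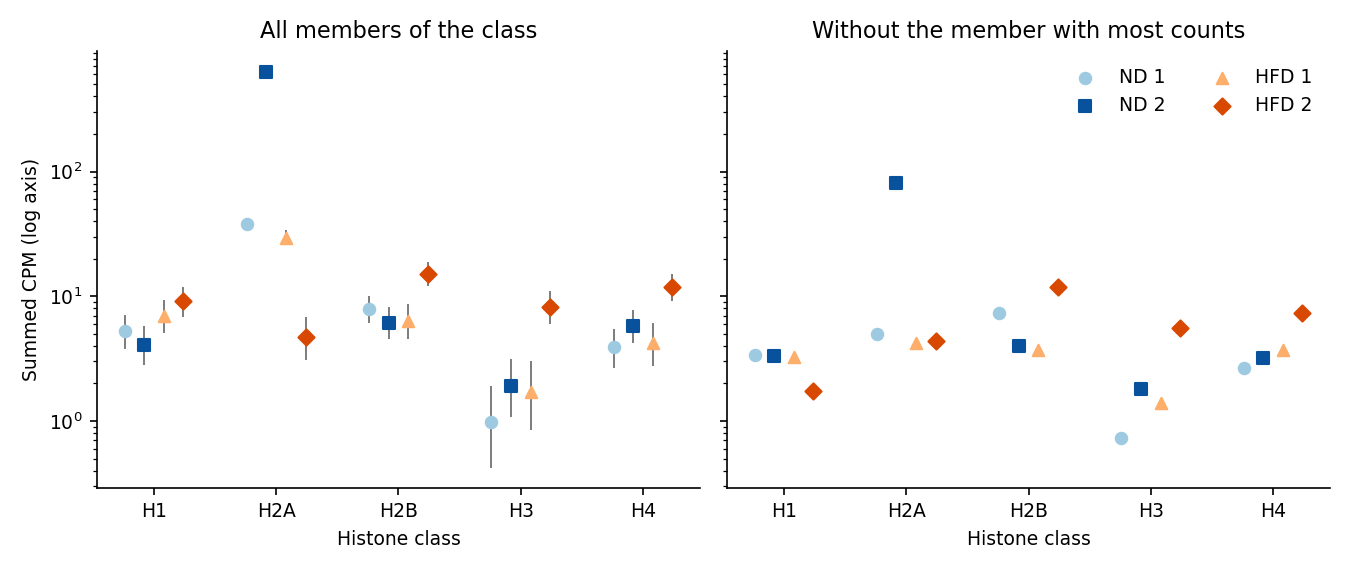
Summed CPM (vertical axis, logarithmic) of each histone class in each of the 4 libraries, for all members (left, with 95% exact binomial intervals, counting error only) and without the member with the most counts (right). H2A of ND replicate 2 stands at 626 CPM, and HFD replicate 2 is highest for H1, H2B, H3 and H4 on the left.

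Among the clusters, Hist1 followed its H2A genes, at 50.5 and 639 CPM in ND and 43.1 and 30.2 in HFD. Hist2 had 2.92 and 3.20 CPM in ND and 2.01 and 13.8 in HFD, and its log2 ratio went from 1.37 to -0.60 without HFD replicate 2. Hist3 had 1.82 and 1.28 in ND and 1.08 and 1.57 in HFD. Hist4 consists of Hist4h4, given above.

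Levels of the sorted cells' markers varied between the libraries, and these are bulk samples, in which fewer cells of a type and less RNA per cell cannot be told apart. Of 12 germ cell markers, 10 and 12 exceeded the background limit in the ND libraries and 8 in each HFD library, and 6 had a log2 fold change above 0 and 6 below. Dazl, a germ cell RNA-binding protein named after its values were seen, had 3730 and 7713 reads per kilobase in ND and 766 and 12.8 in HFD. Ddx4, a germ cell helicase, had 16.3 and 32.2 in ND and lay under the limit in both HFD libraries, at 1.66 and 4.64. In the other direction, Sycp1, of the synaptonemal complex, had 4.38 and 6.14 CPM in ND and 1399.8 and 1394 in HFD. The oocyte transcription factors Nobox and Figla were also higher in both HFD libraries, with log2 fold changes of 8.02 (SE 2.54) and 8.37 (SE 2.51). Ddx4, Sycp1, Nobox and Figla had an unadjusted p under 0.05 and an adjusted p of 0.406 in edgeR, and 0 germ cell markers were called. Of all genes tested, 11.2% had an unadjusted p under 0.05. ND replicate 2, the library with the most H2A reads, was highest for 4 of the 12 markers, ND replicate 1 for 2, HFD replicate 1 for 5 and HFD replicate 2 for 1.

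Markers of other cells differed between the libraries as well. HFD replicate 2, the library with the highest H2B, H3 and H4 sums, held 7700.4 CPM on 9 stroma markers, where the others held 2843, 69.0 and 2222, and it was highest for 6 of the 9. The 9 pregranulosa markers summed to 35.1 and 406 CPM in ND and 18.1 and 1165 in HFD, but without Amhr2 alone to 33.4 and 404 in ND and 17.3 and 52.1 in HFD. The 7 blood markers summed to 1973 CPM in ND replicate 1 and to 2.18 to 11.5 in the others, and 6 endothelium markers to 24.8 and 74.9 in ND and 701 and 42.6 in HFD, but without Kdr alone to 20.2 and 66.3 in ND and 19.7 and 37.7 in HFD. The 6 macrophage markers summed to 9.85 to 40.2 CPM. Defining markers at 0 were 1 or 2 blood genes in every library and 1 macrophage gene in each ND library. The part of these differences in the histone values was not tested.

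Among the replacement histones, H3f3b and H2afz were read at high levels per length in all 4 libraries, whereas the list as a whole was mixed. Of its 14 genes 10, 11, 8 and 5 exceeded the background limit in ND replicates 1 and 2 and HFD replicates 1 and 2, and 4 did so in all of them. H3f3b, a gene for H3.3, had 5457 and 13952 reads per kilobase in ND and 2807 and 1738 in HFD. H2afz, the gene for H2A.Z, had 4215 and 11390.2 in ND and 1002 and 512 in HFD. Hist1h2ag, at 563 and 8779 reads per kilobase in ND and 338 and 4.12 in HFD, lay below H2afz and H3f3b in all 4 libraries. The mRNAs of H2afz and H3f3b are polyadenylated, so this does not compare amounts of mRNA in the cells.

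Of 14 replacement histone genes 12 were tested, 0 were called, and 3 had an unadjusted p under 0.05, beside 11.2% of all genes. Below 0 were 9 of the 12, with a median log2 fold change of -1.58 beside 0.03 over all genes tested. H3f3a, the other gene for H3.3, had 335 and 798 CPM in ND and 14.4 and 4.89 in HFD. H2afx, whose protein is phosphorylated at DNA breaks, had 119 and 6.53 CPM in ND and 0.929 and 1.57 in HFD. Cenpa, the centromeric H3, had 11.6 and 10.9 CPM in ND and 2.32 and 6.81 in HFD. For these 3 genes both HFD libraries lay below both ND libraries, with log2 fold changes of -5.62 (SE 2.15), -5.68 (SE 1.65) and -1.53 (SE 0.52). Their unadjusted p picked them, so this lack of overlap is no separate result. Over all genes with a count, 12.7% had both HFD values below both ND values. H3f3b and H2afz also lay lower in both HFD libraries, at log2 fold changes of -1.62 (SE 2.08) and -2.86 (SE 2.08).

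Among 26 genes for histone transcription and 3′ end formation, 25 were tested and 0 were called. There were 15 above 0 and 10 below, with a median log2 fold change of 0.85. At an unadjusted p under 0.05 were 4, beside 11.2% of all genes. Npat, the coactivator of histone gene transcription, had 226 and 5.76 CPM in ND and 0.620 and 1.75 in HFD. Of the cleavage factor, Sympk had 4.62 and 9.72 CPM in ND and 55.9 and 1953 in HFD, and Cpsf2 had 3.89 and 1.92 in ND and 818 and 6.46 in HFD. The cap-binding partner Srrt had 5.72 and 6.40 CPM in ND and 153 and 1011 in HFD. These 4 did not overlap between the diets, Npat being lower in HFD and the others higher. They were picked by their unadjusted p, so the lack of overlap is no separate result. Per kilobase, Npat held 297 and 7.20 reads in ND and 0.640 and 1.60 in HFD, over the background limit in ND replicate 1 only. Cpsf2 held 5.58 and 2.62 in ND and 921 and 6.45 in HFD, over it in HFD replicate 1 only. Of all genes with a count, 12.7% had both HFD values below both ND values and 13.9% had them above. Snrpe, a core protein of spliceosomal and U7 particles, had at least 50 CPM in all libraries, at 1078 and 86.1 in ND and 65.7 and 414 in HFD. Slbp, the stem-loop binding protein, named after its values were seen, had 10.1 and 35.3 CPM in ND and 1697 and 13.1 in HFD, so that a single library was high.

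All 24 histone chaperone genes were tested, with 0 called, 11 above 0, 13 below and a median log2 fold change of -0.03. At an unadjusted p under 0.05 were 5, beside 11.2% of all genes, and these were lower in both HFD libraries. Since that p picked the 5, their lack of overlap between the diets is no separate result. Asf1b, a chaperone of new H3 and H4, had 794 and 2168 CPM in ND and 1.86 and 10.1 in HFD. Hat1, which acetylates new H4, had 2029.6 and 595 CPM in ND and 2.32 and 3.67 in HFD. Rbbp7, a histone-binding subunit of several complexes, had 982 and 134 CPM in ND and 4.96 and 23.2 in HFD. Asf1a, a paralogue of Asf1b, had 4.26 and 4.99 CPM in ND and 1.70 and 3.32 in HFD, and the H3.3 chaperone Hira had 4.99 and 2.05 in ND and 0.929 and 1.92 in HFD, under the background limit per kilobase in all 4 libraries. Npm1, an abundant nucleolar chaperone, had 4159 and 1475 CPM in ND and 3480.04 and 2245 in HFD.

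Of 28 S phase and cycling genes 26 were tested, 0 were called, 8 lay above 0 and 18 below, and the median log2 fold change was -1.18. At an unadjusted p under 0.05 were 7, beside 11.2% of all genes, and 2 of the 7 were higher in HFD. Lack of overlap between the diets in these 7 is no separate result, since that p picked them. Pcna, the sliding clamp of DNA polymerases, had 137 and 10.6 CPM in ND and 0.774 and 0.699 in HFD. Mcm4, a subunit of the replicative helicase, had 16.7 and 12.4 CPM in ND and 1.08 and 3.32 in HFD. Rrm2, a subunit of ribonucleotide reductase, had 621 and 8.70 CPM in ND and 2.63 and 6.64 in HFD. Cdc6, which loads that helicase, and Pole, a replicative polymerase subunit, were lower in both HFD libraries as well, with log2 fold changes of -2.28 (SE 0.73) and -7.37 (SE 2.63). Lig1, the DNA ligase of replication, had 5.11 and 9.21 CPM in ND and 333 and 1792 in HFD. Tk1, thymidine kinase, had 1.82 and 1.28 CPM in ND and 2.79 and 5.42 in HFD. Per kilobase, Tk1 held 2.89 and 1.92 reads in ND and 3.46 and 5.96 in HFD. Cdc6 held 6.50 and 7.27 in ND and 0.382 and 2.29 in HFD. Both Tk1 and Cdc6 were thus under the background limit in every library. Hist1h2ag, Pole and Cdc6 were highest in ND replicate 2, whereas Pcna, Mcm4 and Rrm2 were highest in ND replicate 1. The adjusted p of each gene named from these lists with an unadjusted p under 0.05 was 0.406 in edgeR.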

How the data were processed

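RNA of SSEA-1-positive fetal oocytes was measured at E18.5 in 2 ND and 2 HFD libraries. Per the labels and the study's methods, the authors trimmed reads with Trim Galore after FastQC, aligned them to mm10 with HISAT2 and deposited raw counts per Ensembl gene from featureCounts. The annotation, strand setting and handling of reads with several matches are not given in the sources used here. Total counts were 8223255 and 7815015 in ND and 6456825 and 5723605 in HFD. Symbols, exon lengths and transcripts came from GENCODE M21 (GRCm38, the assembly of mm10), which lacked 260 identifiers, and promoters from RefSeq (GRCm38.p6). Shared stretches were searched in transcripts, since no genome sequence was used here, and protein identity was not computed. Genes that overlap a member at its own locus, on either strand, counted as sharing.

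Diets were compared in R 4.3.3 with edgeR 4.0.16 (TMM, filterByExpr, quasi-likelihood test with legacy FALSE, Benjamini-Hochberg adjustment over all genes tested), and SE was taken from the log2 fold change and its F statistic. The study's methods name DESeq2, which was run as an alternative (1.42.0), as was limma 3.58.1 (voom). TMM factors were 1.02, 0.940, 0.692 and 1.51. Class and cluster sums are CPM, a description without a test. Functions were tested on simulated data. Alternatives were other size factors, no filter, other tests, a replicate block and each library left out. Named are members with at least 10 CPM in a library or an unadjusted p under 0.05, and from the lists of replacement histones, histone transcription and 3′ processing, chaperones and S phase, genes with an unadjusted p under 0.05 or at least 50 CPM in all 4 libraries. Single cell type markers were named after their values were seen. The members, lists and background measure were chosen with earlier results of these data known.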

Additional observations from a re-analysis of the deposited data

How the results depend on the processing

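With 2 pools per diet, most histone genes were at background and only 6 could be tested. No histone gene was called by edgeR under RLE factors, library totals, no filter, the legacy fit, the replicate block or with any library left out, nor by limma-voom. DESeq2 on all genes called 2 histone genes, Hist1h2ag (log2 fold change -4.17, adjusted p 0.0454) and Hist1h2ap (adjusted p 3.8e-17, all reads in ND replicate 2), of 3 with an adjusted p, beside 18.7% of all genes with one that it called lower. All genes called numbered 0 in the edgeR fit used above (2171 at an unadjusted p under 0.05, 750 in limma-voom), 2518 with DESeq2 and 34 with the legacy fit. Histone genes below 0 numbered 3 of 6, but 30 of 58 without the filter and with DESeq2, where more genes are fitted, and with a library left out, where more genes passed the filter, 5 of 12 without ND replicate 1, 2 of 10 without ND replicate 2, 6 of 14 without HFD replicate 1 and 6 of 10 without HFD replicate 2. With library totals 2 of 6 lay below 0 and the median of all genes was 0.21. Hist2h4 turned from -0.07 to 0.41 with library totals and 0.28 with limma-voom, and with a library left out it ran from -1.52 to 0.53. With the replicate block 0 genes were called and Hist1h2ag was at -5.32. The numbers were not taken as pairs, since only 2 exist and deviations correlated at 0.0112 across 19335 genes. With a library left out, log2 ratios ran from 0.58 to 0.97 for H1, -6.14 to -1.15 for H2A, -0.15 to 1.11 for H2B, 0.24 to 2.51 for H3, -0.21 to 1.30 for H4, -4.12 to -0.46 for Hist1, -0.60 to 2.17 for Hist2, -0.52 to 0.05 for Hist3 and 1.12 to 1.65 for Hist4. Without the member with the most counts, H1 went to -0.43, Hist1 to -1.22 and Hist3 to 0.89, and Hist4 has no other member. TMM and RLE effective sizes moved the log2 ratio of no sum beyond the replicate SD, and the other causes were not tested. That SD was wide, at 2.41 for H2A and 1.85 for Hist1, so it could hide a change of order. With either set of sizes, HFD replicate 1 lay above ND replicate 1 for the H2A and Hist1 sums.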
